A study of Mus musculus with 9 samples.

Results

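The complement genes C1s1, C3, C4b, C7, Cfb, Cfi, Serping1 and C3ar1, with ceruloplasmin (Cp), were followed across 3 preparations of mouse heart cells. The 9 genes were chosen by name, and each was read from its single-gene probe set, taking the one with the highest mean over the arrays. Of the 9 genes, 8 had such a probe set, 1 each, among 19933 genes in all. C3, the central protein of the cascade, had none in the platform annotation and was not analysed here. The groups, with 3 biological replicates on separate arrays each, were embryo cardiomyocytes, embryo cardiac fibroblasts and adult cardiac fibroblasts. The cardiomyocytes were positive for an Nkx-YFP reporter, which marks cells of the cardiac lineage. The series set out to look for fibroblast products that make myocytes proliferate. The sources used here do not give strain, embryonic stage, adult age or any time in culture.

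Complement is a cascade of blood proteins, mostly proteases and their substrates, that marks microbes and damaged cells and can end in a pore in their membrane. The liver makes most of the circulating proteins, and fibroblasts and macrophages are also known to make complement components. The classical route starts with the C1 complex and passes through C4 and C2, the alternative route runs through factor B, and both cleave C3. Ceruloplasmin is a copper-carrying ferroxidase of the blood that oxidises iron for loading on transferrin, and is an acute-phase protein like several complement components.

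Values are log2 RMA values, and differences are in log2 units with the standard error (SE) of a limma fit to all 9 arrays. Calls of higher or lower levels needed a Benjamini-Hochberg adjusted p under 0.05 over the 19933 genes. Levels are the mean ± SD of 3 arrays, and arrays are listed in the order of replicates 1 to 3. Precision is limited by the number of arrays. The third adult fibroblast array differed most from its group: its correlations with the remaining adult arrays averaged 0.970, where the others averaged 0.981 and the embryonic arrays 0.990 to 0.994.

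The preparations were checked against markers. Of 12 fibroblast markers, 12 were called higher in embryonic fibroblasts than in cardiomyocytes, and 7 were higher and 1 lower in adult than in embryonic fibroblasts. Their summed linear level was 10100 to 11500 in cardiomyocytes, 22500 to 26800 in embryonic and 39300 to 42900 in adult fibroblasts. The embryonic fibroblast arrays also carried cardiomyocyte markers, whose summed linear level was 39500 to 54100 there, 77700 to 82400 in cardiomyocytes and 3290 to 5500 in adult fibroblasts. Macrophage markers summed to 2710 to 2930 in cardiomyocytes, 4330 to 6040 in embryonic and 7020 to 12400 in adult fibroblasts. These are bulk RNA values, in which fewer cells of a type and less RNA per cell cannot be told apart. The Y-linked gene Eif2s3y read 8.51 to 9.33 in cardiomyocytes, 8.43 to 8.53 in embryonic and 4.67 to 5.10 in adult fibroblasts. The Y-linked Uty lay at 7.84 to 8.22 in embryonic and 5.24 to 5.56 in adult fibroblasts, and Kdm5d at 8.17 to 8.31 and 6.47 to 6.87. Xist, transcribed from the inactive X chromosome, read 10.49 to 11.16 in cardiomyocytes, 10.84 to 11.04 in embryonic and 11.54 to 11.92 in adult fibroblasts, and was called higher in adult than in embryonic fibroblasts by 0.77 (limma, adjusted p = 0.0109). Sex composition and age therefore cannot be told apart where adult fibroblasts are compared with either embryonic group. The cell type marker sums differ between the same groups, and the part of cell type content in the differences below was not tested.

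Adult fibroblasts held more RNA of 7 of the 8 measured genes than embryonic fibroblasts, and less of Cfi. The rises ran from 1.46-fold for Cfb to 20.3-fold for C1s1 and 30-fold for Cp. In this comparison 8.34% of all genes were called higher and 11.2% lower. All 8 genes had values that did not overlap between the fibroblast groups, 7 with adult arrays above and 1 below, as did 16.9% and 16.1% of all genes. The median difference of the 8 genes was 1.60, against 0.04 over all genes. Between the embryonic groups, 4 of the 8 were called higher in fibroblasts and 0 lower, namely Serping1, Cfi, C3ar1 and Cp. There 10.3% of all genes were called higher and 11.1% lower, and the median difference was 0.37 for the 8 genes and 0.00 over all genes. Against cardiomyocytes, adult fibroblasts were called higher for 7 and lower for 0 of the 8, with 17.4% of all genes called higher and 18.2% lower. The median difference was then 2.84, against 0.06 over all genes. The comparisons share groups and are therefore not independent of each other. The genes were chosen with earlier results of these data known, so the contrasts with all genes describe the set and do not test it.

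**Figure D1:**
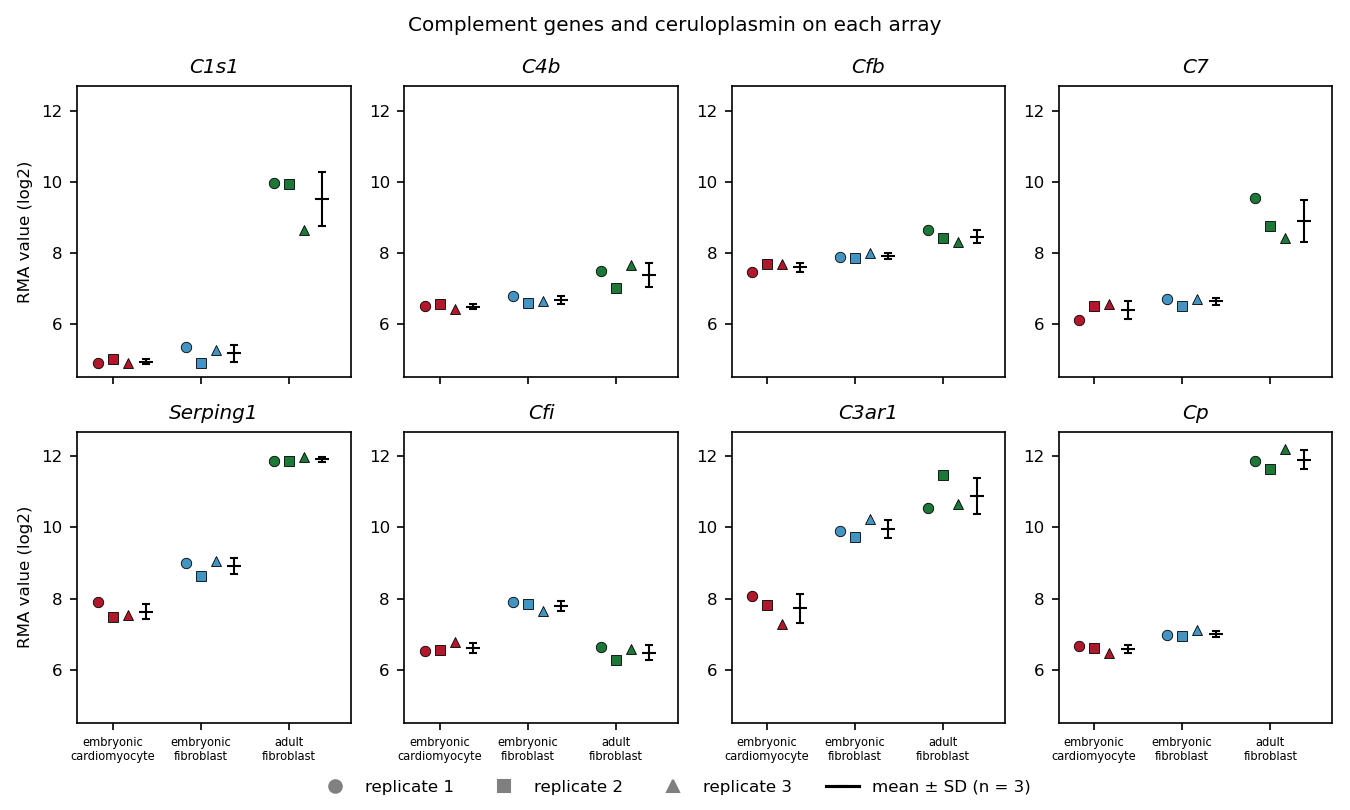
Log2 RMA values (vertical axis) of the 8 measured genes on each of the 9 arrays (points), by group, with the mean ± SD of 3 arrays as a bar. Adult arrays lie above both embryonic groups for 7 genes, and for Cfi the embryonic fibroblast arrays, at 7.64 to 7.89, lie above the other two groups.

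C1s1 encodes a form of C1s, the protease of the C1 complex that cleaves C4 and C2. Its cardiomyocyte arrays read 4.89, 5.02 and 4.90, its embryonic fibroblast arrays 5.35, 4.89 and 5.27, and its adult fibroblast arrays 9.97, 9.93 and 8.65. The embryonic groups overlapped, and all 3 adult arrays lay far above them. The cardiomyocyte mean was 4.94 ± 0.07, that of embryonic fibroblasts 5.17 ± 0.24 and that of adult fibroblasts 9.52 ± 0.75 (SD, n = 3). Adult exceeded embryonic fibroblasts by 4.35 ± 0.31 (SE), or 20.3-fold (limma, adjusted p = 1.62e-05). Between the embryonic groups the difference of 0.24 had a 95% interval from -0.46 to 0.93 and was not called (limma, adjusted p = 0.694). The lowest adult value came from the array that stood apart, and without it the adult excess was 4.78.

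C4b encodes complement C4, the substrate of C1s. The 3 cardiomyocyte arrays read 6.51, 6.55 and 6.41, the embryonic fibroblast arrays 6.80, 6.59 and 6.65, and the adult arrays 7.49, 7.0 and 7.67. The 3 groups did not overlap and rose from cardiomyocytes over embryonic to adult fibroblasts. The embryonic step was 0.19, with an interval from -0.16 to 0.53, and was not called (limma, adjusted p = 0.482). The adult step was 0.71 ± 0.15 (SE), or 1.64-fold, and was called (limma, adjusted p = 0.00953). C4b has a close copy, C4a, and C1s1 has one in C1s2, and whether the probe sets keep these pairs apart was not tested.

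Cfb encodes factor B, which carries the protease of the alternative pathway convertase. Cardiomyocyte arrays read 7.45, 7.68 and 7.68, embryonic fibroblast arrays 7.88, 7.86 and 8.01, and adult arrays 8.65, 8.43 and 8.30. No group overlapped another. Adult exceeded embryonic fibroblasts by 0.54 ± 0.11 (SE), or 1.46-fold, which is the smallest of the 7 rises (limma, adjusted p = 0.00675). The embryonic difference of 0.32 had an interval from 0.07 to 0.56 and missed the threshold (limma, adjusted p = 0.0715).

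C7 encodes a component of the membrane attack complex, the pore at the end of the cascade. Cardiomyocyte arrays read 6.11, 6.52 and 6.56, embryonic fibroblast arrays 6.69, 6.52 and 6.70, and adult arrays 9.54, 8.77 and 8.41. The embryonic groups overlapped, and the adult arrays lay well above both. The adult excess over embryonic fibroblasts was 2.27 ± 0.25 (SE), or 4.82-fold (limma, adjusted p = 0.000226). The embryonic difference was 0.24, with an interval from -0.32 to 0.80 (limma, adjusted p = 0.597).

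Serping1 encodes the C1 inhibitor, a serpin that inactivates C1r and C1s and also restrains the contact system. It read 7.89, 7.49 and 7.53 in cardiomyocytes, 9.01, 8.64 and 9.07 in embryonic and 11.88, 11.87 and 11.99 in adult fibroblasts. The adult arrays agreed closely with each other, at 11.92 ± 0.07, and no groups overlapped. The gene rose at both steps, by 1.27 ± 0.14 (SE), or 2.42-fold, from cardiomyocytes to embryonic fibroblasts (limma, adjusted p = 0.000332). The step from embryonic to adult fibroblasts was 3.01 ± 0.14 (SE), or 8.03-fold (limma, adjusted p = 1.5e-06).

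Cfi encodes factor I, the protease that cuts C3b and C4b with the help of cofactors and so stops the cascade. Its cardiomyocyte arrays read 6.52, 6.55 and 6.78, its embryonic fibroblast arrays 7.89, 7.84 and 7.64, and its adult arrays 6.63, 6.26 and 6.57. Embryonic fibroblasts stood above both other groups, which overlapped each other. They exceeded cardiomyocytes by 1.18 ± 0.12 (SE), or 2.26-fold (limma, adjusted p = 0.000279). From embryonic to adult fibroblasts the gene fell by 1.31, SE 0.12, or 2.48-fold (limma, adjusted p = 8.85e-05). Adult fibroblasts and cardiomyocytes differed by -0.13, with an interval from -0.41 to 0.15 (limma, adjusted p = 0.452).

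The sum of mesothelial and epicardial markers was, like Cfi, highest in embryonic fibroblasts. This summed linear level was 2390, 2600 and 2460 in cardiomyocytes, 3810, 3170 and 3830 in embryonic fibroblasts, and 1910, 1920 and 2090 on the adult arrays. Among the embryonic fibroblast arrays the orders differed, since Cfi was lowest on replicate 3, where this sum was highest. Of 10 markers, 4 were called higher in embryonic fibroblasts than in cardiomyocytes and 0 lower, and 0 were higher and 8 lower in adult than in embryonic fibroblasts. The 4 that were highest in embryonic fibroblasts by both calls were Upk1b, with differences of 1.77 and -2.16, Muc16, of 1.65 and -2.10, Lrrn4, of 0.76 and -0.75, and Krt18, of 0.64 and -1.20. The endothelial marker sum also had its highest median in embryonic fibroblasts, at 14100, against 4300 in cardiomyocytes and 8410 in adult fibroblasts. Among the embryonic fibroblast arrays it followed the order of Cfi, at 14200, 14100 and 10200. Among the adult arrays it did not, at 8410, 13200 and 5670, since Cfi was lowest on replicate 2, where this sum was highest. The part of mesothelial, epicardial or endothelial RNA in the Cfi values was not tested.

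C3ar1 encodes the receptor for C3a, the small fragment released from C3, and is known from macrophages and other myeloid cells. It read 8.07, 7.82 and 7.28 in cardiomyocytes, 9.90, 9.74 and 10.25 in embryonic and 10.54, 11.48 and 10.65 in adult fibroblasts. The groups did not overlap, and adult replicate 2 was the highest array. The embryonic step of 2.24 ± 0.27 (SE), or 4.72-fold, was larger than that of any other gene of the set (limma, adjusted p = 0.000572). The adult step was 0.93 ± 0.27 (SE), or 1.91-fold (limma, adjusted p = 0.0414). Without adult replicate 2 it was 0.64 and was not called (limma, adjusted p = 0.103). Without embryonic fibroblast replicate 1 or 2, or cardiomyocyte replicate 2, it was not called either, at adjusted p = 0.118, 0.137 and 0.0665.

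The sum of the macrophage markers rose from group to group as C3ar1 did. This summed linear level was 5180, 4330 and 6040 in embryonic fibroblasts and 7020, 12400 and 9190 in adult fibroblasts. In adult fibroblasts replicate 2 was highest in both measures, and in embryonic fibroblasts replicate 3 was highest and replicate 2 lowest in both. This match was not particular to macrophage markers. The cardiomyocyte marker sum had the same order, at 47300, 39500 and 54100 in embryonic and 3290, 5500 and 3560 in adult fibroblasts. The endothelial sum was also highest on adult replicate 2, at 13200. Of the 14 macrophage markers, 9 were called higher in embryonic fibroblasts than in cardiomyocytes and 0 lower, and 6 were higher and 1 lower in adult than in embryonic fibroblasts. Among the adult arrays 9 of the 14 were highest on replicate 2, 4 on replicate 3 and 1 on replicate 1. The defining markers did not all follow C3ar1 between the fibroblasts: Adgre1 differed by 1.07, Cd68 by 1.10 and Ptprc by 2.09, while Tyrobp differed by -0.04 and Aif1 by -0.54. The part of macrophage RNA in the C3ar1 values was not tested.

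**Figure D2:**
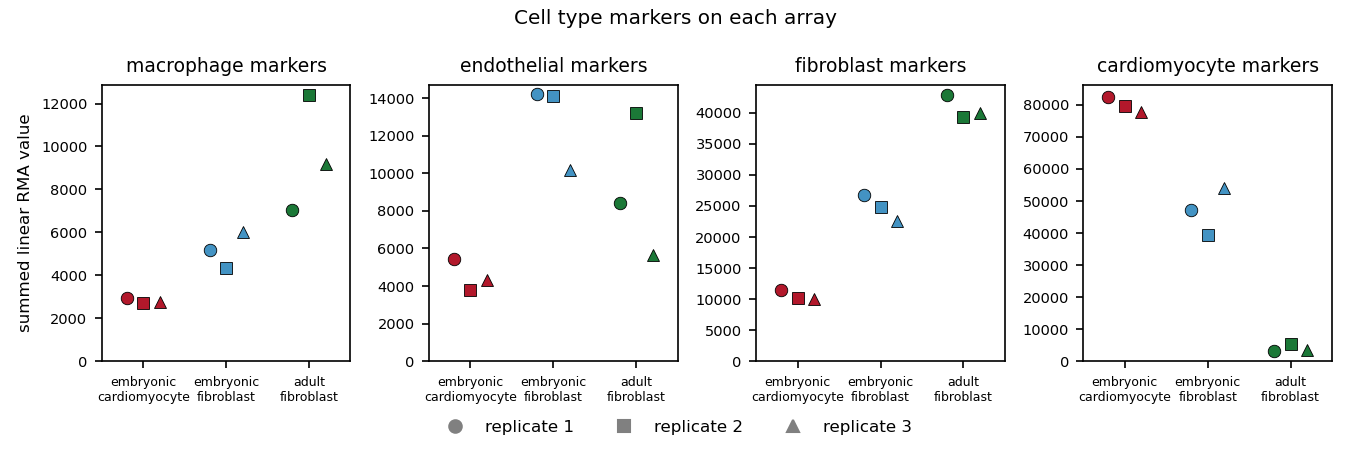
Summed linear level of marker lists on each of the 9 arrays (vertical axes, linear RMA units), for macrophage, endothelial, fibroblast and cardiomyocyte markers, by group. Macrophage markers are highest in adult fibroblasts, at 7020 to 12400, and cardiomyocyte markers fall from 77700 to 82400 in cardiomyocytes to 3290 to 5500 in adult fibroblasts.

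Cp showed the largest adult excess of the set. Cardiomyocyte arrays read 6.65, 6.62 and 6.46, embryonic fibroblast arrays 6.96, 6.94 and 7.10, and adult arrays 11.87, 11.65 and 12.20. The 3 groups did not overlap, and the adult arrays stood far above the rest. Adult exceeded embryonic fibroblasts by 4.91 ± 0.13 (SE), or 30-fold (limma, adjusted p = 1.45e-07). The embryonic step was 0.42 ± 0.13 (SE), or 1.34-fold, close to the threshold (limma, adjusted p = 0.0488). It was not called in 11 of 18 alternative settings, over which its adjusted p ran from 0.00757 to 0.178, and was lost without any 1 embryonic array or adult replicate 1. The liver is the main source of plasma ceruloplasmin, and 9 measured hepatocyte markers summed to 1250 to 1300 in cardiomyocytes, 1270 to 1700 in embryonic and 1330 to 1430 in adult fibroblasts.

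**Figure D3:**
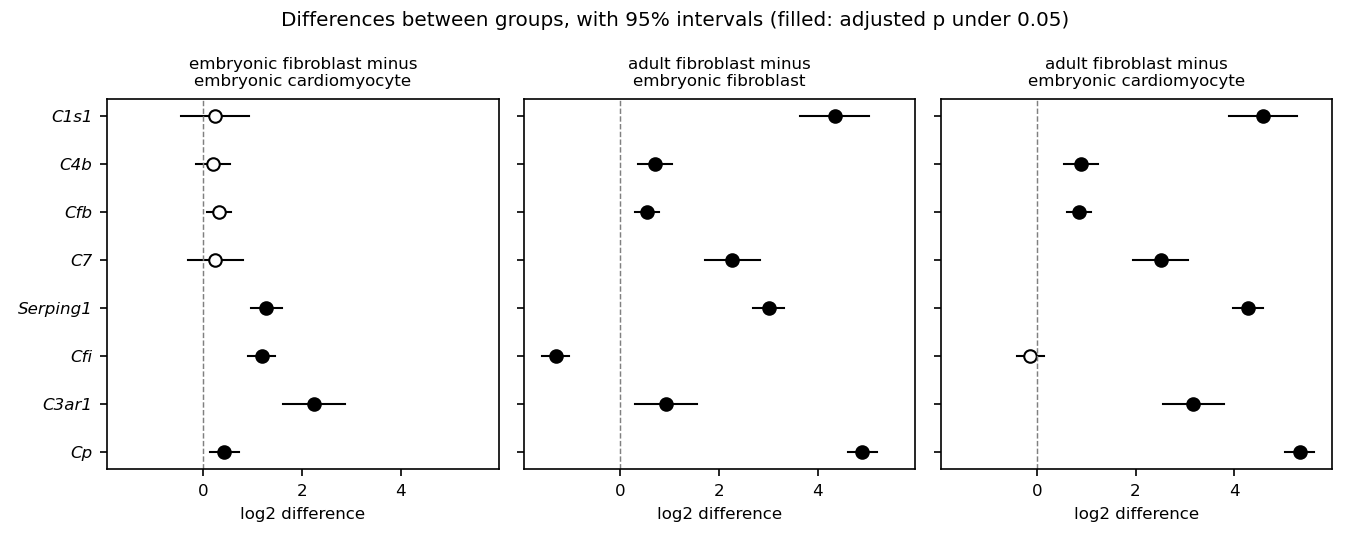
Log2 differences of the 8 measured genes with 95% intervals in the 3 comparisons, filled where called. The differences of adult minus embryonic fibroblasts run from -1.31 for Cfi to 4.91 for Cp, and the embryonic ones from 0.19 for C4b to 2.24 for C3ar1.

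Against cardiomyocytes, adult fibroblasts were higher by 5.33 for Cp (40.1-fold; limma, adjusted p = 3.52e-08), 4.58 for C1s1 (24.0-fold; limma, adjusted p = 3.45e-06) and 4.28 for Serping1 (19.4-fold; limma, adjusted p = 1.23e-07). C3ar1 was higher by 3.17, or 9.0-fold, and C7 by 2.51, or 5.70-fold (limma, adjusted p = 1.6e-05 and 3.82e-05). The steps of C4b and Cfb were smaller, at 0.90 and 0.86 (limma, adjusted p = 0.00126 and 0.000194). In this comparison cell type, age and sex composition differ together.

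The promoter windows of the measured genes held in the RefSeq promoter table (GRCm38.p6) are printed because all 4 of these genes rose from embryonic to adult fibroblasts. Each runs from 250 bases before to 50 bases after an annotated start, and capitals mark letters that match a searched motif on either strand. Where a gene has overlapping start sites, the window with more matches is shown, chosen after the matches were seen. C1s1 lies on the minus strand at chr6:124542310-124542609, C7 on the minus strand at chr15:5063724-5064023, C3ar1 on the minus strand at chr6:122856108-122856407 and Cp on the plus strand at chr3:19956999-19957298.
C1s1: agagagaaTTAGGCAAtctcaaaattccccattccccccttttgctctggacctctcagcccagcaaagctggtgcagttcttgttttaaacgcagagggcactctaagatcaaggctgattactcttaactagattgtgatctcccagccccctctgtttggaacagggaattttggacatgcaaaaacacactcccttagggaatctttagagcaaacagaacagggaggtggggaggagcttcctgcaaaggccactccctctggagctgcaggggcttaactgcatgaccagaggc
C7: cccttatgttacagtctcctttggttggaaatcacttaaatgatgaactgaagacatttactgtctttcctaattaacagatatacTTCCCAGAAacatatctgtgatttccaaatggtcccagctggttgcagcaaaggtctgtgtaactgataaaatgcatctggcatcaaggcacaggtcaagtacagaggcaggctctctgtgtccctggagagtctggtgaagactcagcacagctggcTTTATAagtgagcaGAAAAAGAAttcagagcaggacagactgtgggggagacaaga
C3ar1: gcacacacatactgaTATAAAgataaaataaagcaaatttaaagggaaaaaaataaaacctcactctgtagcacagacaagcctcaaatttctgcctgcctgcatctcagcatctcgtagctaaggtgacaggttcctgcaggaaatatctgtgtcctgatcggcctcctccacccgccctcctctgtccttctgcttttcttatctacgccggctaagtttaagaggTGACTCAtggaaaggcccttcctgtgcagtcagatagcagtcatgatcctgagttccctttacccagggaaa
Cp: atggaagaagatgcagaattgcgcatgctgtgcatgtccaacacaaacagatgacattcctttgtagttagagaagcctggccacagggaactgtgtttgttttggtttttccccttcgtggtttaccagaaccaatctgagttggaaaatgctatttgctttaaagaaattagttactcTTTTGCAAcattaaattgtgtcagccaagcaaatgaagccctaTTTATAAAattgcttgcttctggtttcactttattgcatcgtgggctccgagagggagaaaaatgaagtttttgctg

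Motifs for 6 kinds of element were searched on both strands. They were the NF-kB type GGANTTTCC, the STAT type TTCNNNGAA, the interferon response core GAAANNGAA, the C/EBP type TTNNGCAA, the AP-1 type TGANTCA and the TATA box TATAAA. Of the 32851 promoters of the table, 1.25%, 8.30%, 8.56%, 10.8%, 7.81% and 13.6% hold them, in that order. The Cp window holds a C/EBP type match at -70 and a TATA box at -25, with a reverse-strand TATA match at -27 that overlaps it. The C7 window holds a STAT type match at -164, a reverse-strand TATA match at -6 and an interferon response core at 9. The C3ar1 window holds an AP-1 match at -22 and a TATA match at -235, and the C1s1 window a C/EBP type match at -242. The letters of the NF-kB type are not in these 4 windows. The window of the other Cp start, which is not printed, holds an AP-1 match at -177 and no C/EBP type or TATA match. That of the other C1s1 start holds no match. Such matches describe the letters and are not evidence of binding.

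Of 50 other complement genes listed by role, 45 were measured, and most showed no called change. In adult against embryonic fibroblasts 11 were called higher and 2 lower, against 8.34% and 11.2% of all genes, with a median difference of 0.17. Between the embryonic groups 7 were higher and 2 lower in fibroblasts, against 10.3% and 11.1% of all genes, with a median of 0.05. In adult fibroblasts against cardiomyocytes 17 were higher and 2 lower, against 17.4% and 18.2% of all genes, with a median of 0.24.

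Among 18 measured genes that start the cascade, 4 were called higher in adult than in embryonic fibroblasts and 0 lower. C1s2, the copy of C1s1, read 5.45, 4.99 and 5.04 in cardiomyocytes, 5.30 on all 3 embryonic fibroblast arrays and 6.43, 7.23 and 9.09 on the adult arrays. Equal values on all 3 embryonic fibroblast arrays were found for 1.57% of probes. The adult excess of C1s2 was 2.28 ± 0.53 (SE), or 4.87-fold (limma, adjusted p = 0.0143), and fell to 1.53 without adult replicate 3 (adjusted p = 0.000953). In contrast to C1s1, which was lowest on that adult array, C1s2 was highest on it. C1ra, the protease that activates C1s, differed by 0.60 (limma, adjusted p = 0.0342), a call lost on leaving out any 1 array other than adult replicate 2 or 3, with adjusted p up to 0.118. C4a differed by 0.46 (limma, adjusted p = 0.0127), not called without embryonic fibroblast replicate 1 (adjusted p = 0.0505), and Colec10, a collectin of the lectin pathway, by 0.58 (limma, adjusted p = 0.01). C1qa, C1qb and C1qc, the recognition subunits of C1, were not called between the fibroblasts (limma, adjusted p = 0.331, 0.309 and 0.306). C2 differed by 0.17 (limma, adjusted p = 0.187).

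Between the embryonic groups, 3 initiators were called higher in fibroblasts. Colec12, a scavenger receptor with a collectin domain, was higher by 1.13 (limma, adjusted p = 0.000257). C1qc was higher by 0.88 (limma, adjusted p = 0.0193), a call lost without any 1 cardiomyocyte array or embryonic fibroblast replicate 1 or 3. Masp2, a protease of the lectin pathway, was higher by 0.42 (limma, adjusted p = 0.0165), lost without embryonic fibroblast replicate 2.

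Of 6 terminal genes other than C7, 2 were called higher in adult than in embryonic fibroblasts and none between the embryonic groups. C8b was higher by 0.31 (limma, adjusted p = 0.00888) and Hc, which encodes C5, by 0.28 (limma, adjusted p = 0.0257), the latter lost without any 1 embryonic fibroblast array or adult replicate 2. C6, the neighbour of C7 in the pore and on the chromosome, differed by 0.28 (limma, adjusted p = 0.102), and C9 by 0.02 (limma, adjusted p = 0.912).

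Of 13 measured regulators outside the set, 3 were called higher and 2 lower in adult than in embryonic fibroblasts. Cd55, decay-accelerating factor, which takes C3 convertases apart at the cell surface, read 6.98, 6.54 and 6.32 in cardiomyocytes, 8.12, 7.90 and 7.78 in embryonic and 10.53, 10.12 and 11.11 in adult fibroblasts. It rose at both steps without overlap, by 1.32 ± 0.25 (SE) and by 2.65 ± 0.25 (SE), or 6.29-fold (limma, adjusted p = 0.0044 and 7.78e-05). Cd46, a cofactor for factor I, was higher by 0.90 and Vtn, vitronectin, by 0.84 in adult than in embryonic fibroblasts (limma, adjusted p = 0.0116 and 0.000113). Cd59a, which blocks the assembly of the pore, fell by 1.04 between the fibroblasts (limma, adjusted p = 0.000472) and Clu, clusterin, by 0.44 (adjusted p = 0.0127). Both were also lower in embryonic fibroblasts than in cardiomyocytes, Cd59a by a difference of -0.55 and Clu of -0.45 (limma, adjusted p = 0.014 and 0.0111). The Cd59a call between the embryonic groups was lost without replicate 2 or 3 of the cardiomyocytes or 1 or 2 of the embryonic fibroblasts, the Clu call without embryonic fibroblast replicate 2, and the Clu call between the fibroblasts without replicate 1 of that group.

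Of 8 receptors outside the set, 2 were called higher in adult than in embryonic fibroblasts. C5ar1, the receptor for C5a, read 7.06, 7.03 and 6.61 in cardiomyocytes, 8.13, 7.83 and 8.28 in embryonic and 9.38, 10.09 and 8.78 in adult fibroblasts. Its steps were 1.18 (limma, adjusted p = 0.0166, lost without cardiomyocyte replicate 3 or embryonic fibroblast replicate 1 or 3) and 1.34 ± 0.29 (SE), or 2.52-fold (limma, adjusted p = 0.00963). Like C3ar1, it was highest on adult replicate 2. Vsig4, a complement receptor of tissue macrophages, was higher by 0.88 in adult fibroblasts (limma, adjusted p = 0.00954). Cd93, known from endothelial and myeloid cells, and the integrin Itgam were higher in embryonic fibroblasts than in cardiomyocytes, by 1.63 and 0.47 (limma, adjusted p = 0.00445 and 0.0107). The adult difference of Cd93 was -0.90 (limma, adjusted p = 0.0685). Endothelial markers summed to 3780 to 5450 in cardiomyocytes, 10200 to 14200 in embryonic and 5670 to 13200 in adult fibroblasts, and their part in the Cd93 values was not tested.

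**Figure D4:**
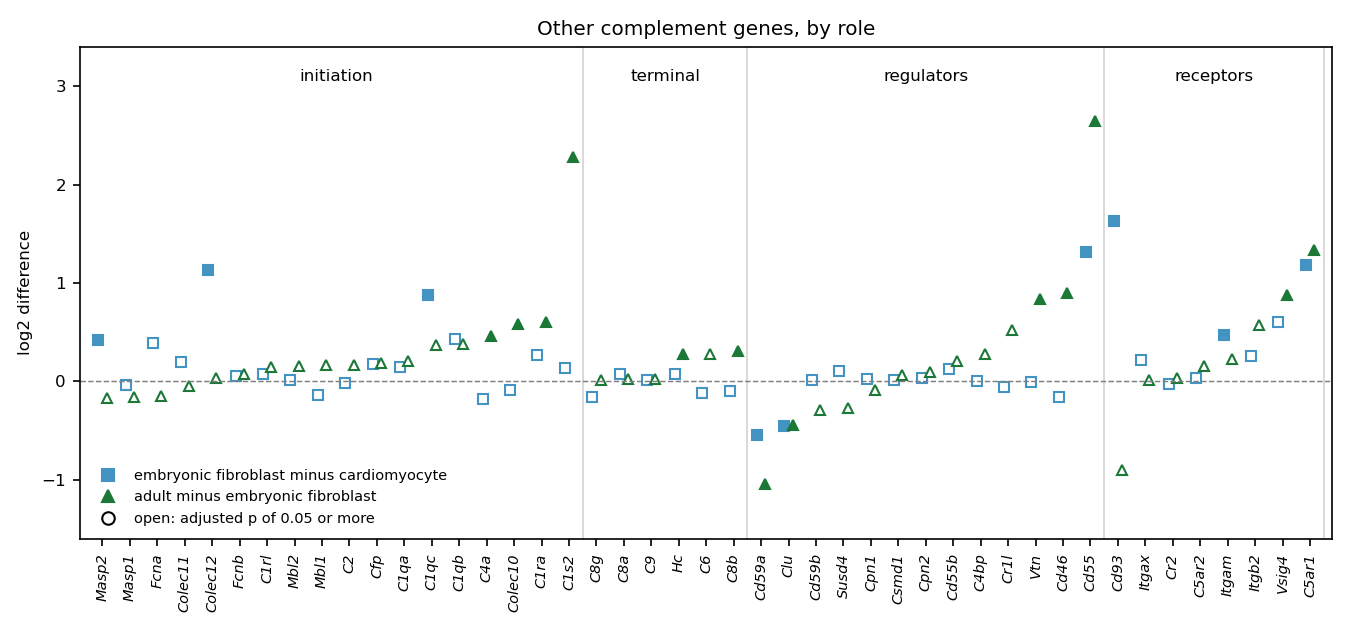
Log2 differences of the other complement genes by role, for embryonic fibroblasts minus cardiomyocytes (squares) and adult minus embryonic fibroblasts (triangles), filled where called. Most of the 45 measured genes lie near 0, and Cd55 (2.65) and C1s2 (2.28) have the largest adult differences.

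Cp was also set beside genes of iron and copper handling, of which all 26 listed were measured. In adult against embryonic fibroblasts 7 were called higher and 4 lower, with a median difference of 0.04, the same as over all genes. The shares of all genes called there were 8.34% and 11.2%. Heph, hephaestin, a membrane-bound relative of ceruloplasmin, went the other way from Cp. It read 7.96, 7.89 and 7.86 in cardiomyocytes, 8.76, 8.89 and 8.33 in embryonic and 6.80, 6.74 and 7.05 in adult fibroblasts. Between the fibroblasts it fell by 1.80, SE 0.14, or 3.48-fold (limma, adjusted p = 3.21e-05). Hephl1, hephaestin-like 1, went the same way as Cp by a smaller step, from 6.02 in embryonic to 6.54 in adult fibroblasts. Its difference was 0.52 (limma, adjusted p = 0.00892). Slc40a1, ferroportin, the iron exporter that works with these ferroxidases, differed by -0.46 and was not called (limma, adjusted p = 0.231).

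The metalloreductase Steap4 was higher in adult than in embryonic fibroblasts by 2.47 ± 0.11 (SE), or 5.53-fold (limma, adjusted p = 1.5e-06). The metallothioneins Mt2 and Mt1, which bind copper and zinc, were higher by 2.29 and 1.16, and Hmox1, which frees iron from haem, by 1.36 (limma, adjusted p = 0.000984, 0.00693 and 0.0107). Steap1, the copper chaperone Cox17 and the copper pump Atp7a were lower in adult fibroblasts, with differences of -0.82, -0.77 and -0.51. In embryonic fibroblasts 8 of the 26 were called higher and 3 lower than in cardiomyocytes, against 10.3% and 11.1% of all genes. Among the 8 were Hmox1 by 2.85, Steap1 by 1.54, Atp7a by 1.17 and Slc40a1 by 1.03. Called lower there were the transferrin receptor Tfrc, by a difference of -1.24, Cox17 of -1.02 and Mt1 of -0.82. Without cardiomyocyte replicate 3 or embryonic fibroblast replicate 2 Slc40a1 was not called. Mt1 was not called without any 1 embryonic array other than embryonic fibroblast replicate 3, and without embryonic fibroblast replicate 2 its difference was -0.55.

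Cp and several complement proteins belong to the acute-phase response, and other genes of that response were counted. Of 27 measured, 2 were called higher in adult than in embryonic fibroblasts and 0 lower, against 8.34% and 11.2% of all genes. The median was 0.11. The 2 called genes were the protease inhibitor Serpina3n, higher by 1.44 (limma, adjusted p = 0.00125), and the pentraxin Ptx3, higher by 0.98 (limma, adjusted p = 0.00105). Saa3, a serum amyloid A gene, differed by 0.42 (limma, adjusted p = 0.0909). Between the embryonic groups 6 were called higher in fibroblasts and 0 lower, against 10.3% and 11.1% of all genes. Among the 6 were Ptx3 by 2.56, Lbp by 1.13, Trf by 1.05 and Orm3 by 0.67. The Lbp call was lost without replicate 1 or 2 of either embryonic group. Of 6 measured genes of the contact system, which Serping1 also restrains, 0 were called in any of the 3 comparisons.

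Cytokines, receptors and transcription factors of the pathways known to induce complement genes and ceruloplasmin were counted as well, together with inhibitors of these pathways such as Nfkbia, Socs1 and Socs3. Of 29 measured, 16 were called higher in adult than in embryonic fibroblasts and 0 lower, with a median of 0.68. Over all genes 8.34% were called higher and 11.2% lower there. Nfkbia, an inhibitor of NF-kB, is among the 16 at 1.28. Also among the 16, the calls of Nfkb2, Irf1, Irf8, Nfkbiz, Il1b and Cebpa were lost on leaving out at least 1 array. The cytokine Il6 read 6.48, 5.73 and 7.43 in embryonic fibroblasts and 12.19, 12.02 and 12.94 in adult fibroblasts, an excess of 5.84 or 57.2-fold (limma, adjusted p = 1.65e-05). Tnf was higher by 2.59, Osmr, the oncostatin M receptor, by 2.09 and the cytokine Lif by 1.83. Ifng, an inducer of several complement genes, differed by -0.04 and was not called (limma, adjusted p = 0.745). Embryonic fibroblasts were called higher than cardiomyocytes for 10 of them and lower for 2, against 10.3% and 11.1% of all genes. Among the 10, the calls of Tnfrsf1b, Nfkbia, Cebpa and Il1b were lost on leaving out at least 1 array. The highest there was Il1a, by 3.24 (limma, adjusted p = 0.000574), followed by Osmr at 1.46, Nfkbiz at 1.15 and Il1b at 1.12, the last lost without cardiomyocyte replicate 2. The lower genes were Ifngr2, at -0.61, and Socs3, an inhibitor of cytokine signalling, at -0.54, the latter lost without replicate 1 or 2 of the embryonic fibroblasts. Whether these genes act on the complement genes here was not tested.

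Genes next to the set on the chromosomes were read to show how far the steps extended. Taking 4 protein-coding genes on either side in RefSeq order, 58 neighbours outside the set were measured. In adult against embryonic fibroblasts 4 of them were called higher, 5 lower and 49 were not called, near the shares over all genes. Beside C1s1 on chromosome 6 the related C1s2 and C1ra were called, and C1rl was not, with a difference of 0.15. Beside C4b on chromosome 17, Tnxb, tenascin XB, was higher by 1.11 (limma, adjusted p = 0.000152). Beside Cp on chromosome 3, Hps3 was higher by 0.97, while Gyg, glycogenin, and the muscle gene Trim55 were lower, at -2.97 and -2.77, as was Crh, at -0.95. Beside C7 on chromosome 15, Oxct1 was lower, at -1.08, and beside Cfi on chromosome 3, Casp6 was lower, at -0.79. None of the measured neighbours of Cfb, Serping1 and C3ar1 was called between the fibroblasts. In embryonic fibroblasts against cardiomyocytes 5 neighbours were called higher, 5 lower and 48 were not called. The largest of the 5 higher was Sec24b beside Cfi, by 1.01 (limma, adjusted p = 0.000235), and Rrh, also beside Cfi, was higher by 0.62. The others were Clp1 beside Serping1, by 0.96 (limma, adjusted p = 0.00577), Clec4a1 beside C3ar1, by 0.72 (limma, adjusted p = 0.0482), and Prkaa1 beside C7, by 0.54. The 5 lower were Trim55, Crh, Gyg and Hltf beside Cp, at -2.0, -1.74, -1.06 and -1.01, and Oxct1 beside C7, at -0.52.

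**Figure D5:**
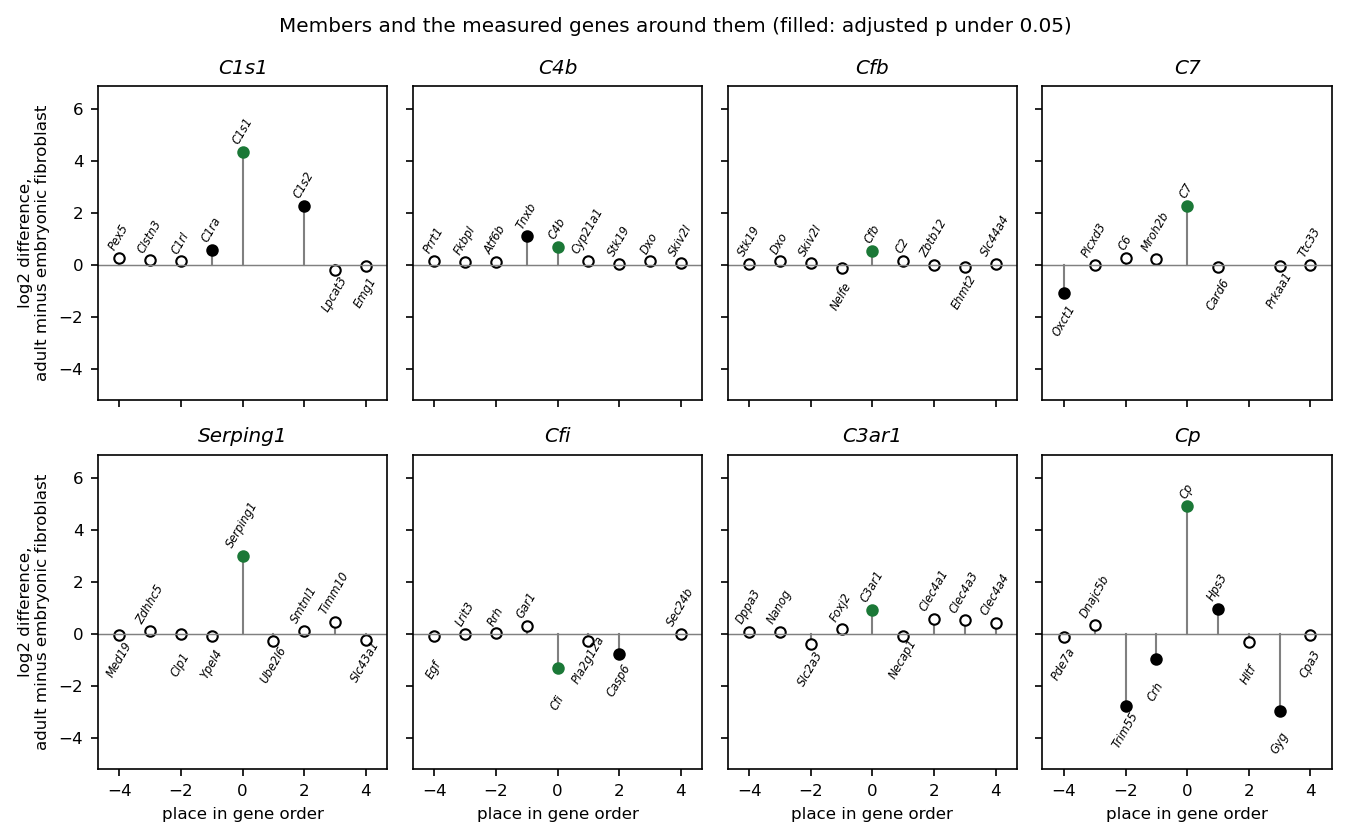
Log2 difference, adult minus embryonic fibroblasts, of each of the 8 genes (place 0, green) and of up to 4 protein-coding neighbours on either side in gene order, filled where called. Cp (4.91) and C1s1 (4.35) stand above their neighbours, of which C1s2 (2.28) is the highest.

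The genes whose values over the 9 arrays were most like each member were sought among 5089 genes that span at least 1 log2 unit, by Pearson's r, as a description with no test. The arrays fall into 3 groups, so r mostly reflects the group means. Nearest to Cp were Prelp (0.997), a matrix proteoglycan, Ms4a4d (0.995) and Ces1d (0.995). Nearest to C1s1 were Smoc2 (0.997), a calcium-binding matrix protein, Cpeb1 (0.993) and Prg4 (0.993), lubricin. For C7 they were Mmp3 (0.994), a matrix metalloproteinase, Niban1 (0.992) and Cpeb1 (0.991), and for Serping1 Dock10 (0.998), Layn (0.997) and the chemokine Cxcl3 (0.996). C4b was closest to C1ra (0.978), Snora33 (0.973) and Crls1 (0.968), and Cfb to Pcnx4 (0.984), Dtx4 (0.984) and Mlxip (0.981). C3ar1 was closest to Tut7 (0.994), Ier3 (0.990) and Mier1 (0.989). Cfi, the gene highest in embryonic fibroblasts, was closest to Greb1l (0.978), Sv2c (0.969) and Ccdc3 (0.961).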

How the data were processed

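Mouse Gene 1.0 ST arrays of 9 samples were used, grouped by sample title, with 3 biological replicates a group per the series design. Per the submitters' processing notes, the authors used RMA, of no stated version, which corrects background, normalizes arrays and summarizes probes. RMA compresses the differences of dim genes. The deposited values, between 2.70 and 14.20, were taken as log2, since no log base is stated. The sources used here give neither the genome build nor the annotation of the arrays. The platform annotation gave 21776 of 28767 probes a single symbol, 1618 several and 5373 none. The RefSeq table (GRCm38.p6) held 21686 of the first and changed 0 symbols. A gene was read from its probe with the highest mean, which gave 19933 genes. The table held 0 columns of other samples.

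Limma 3.58.1 under R 4.3.3 was fitted to these values (lmFit, eBayes) with a mean for each group over all 9 arrays (median 9.21 degrees of freedom), p-values adjusted by Benjamini-Hochberg and tests two-sided. The fit was tested on simulated data. Figures used matplotlib 3.10.9 and Python 3.11.15. Genes named are the members, the close copies C4a and C1s2, the sex-linked genes, up to 4 called genes with the largest difference in each direction from each list in the 2 main comparisons, every other complement gene called with a difference of at least 1, and the 3 nearest patterns of each member. C1qa, C1qb, C2, C6, C9, Saa3, Hephl1 and Ifng were named after their values were seen. So were Nfkbia, Nfkb2, Tnfrsf1b, Irf1, Irf8, Cebpa, the single cell type markers and the neighbours. The members and the lists were chosen with earlier results of these data known.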

Additional observations from a re-analysis of the deposited data

How the results depend on the processing

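Settings tried in turn were a replicate block, arrays centred on their medians, quantile normalization, dim genes left out, the mean of all probes or the lowest probe of a gene, array weights, a trended and robust fit, the compared groups alone and each array left out. No difference of a member reversed under any of them. With dim genes left out, 5265 genes, C1s1 and C4b among them, were not tested. Calls of members ran from 3 to 5 between the embryonic groups, from 5 to 7 higher and 1 lower between the fibroblasts, and from 5 to 7 between adult fibroblasts and cardiomyocytes. Both counts of 5 in adult fibroblasts came with dim genes left out, where C1s1 and C4b were not tested. No tested member lost its call between adult fibroblasts and cardiomyocytes. Cfb between the embryonic groups was called with array weights (adjusted p = 0.0387), with the compared groups alone (0.0367), without adult replicate 1 (0.0469) and without adult replicate 3 (0.0369). Whether same-numbered samples belong together is not stated in the sources used here. Correlations of deviations ran from -0.195 to 0.198 between same-numbered arrays and from -0.22 to 0.191 between the others. They show no pairing, and with 3 arrays a group they cannot exclude it. With the replicate block, 3 members were called between the embryonic groups, and 6 higher between the fibroblasts, with adjusted p = 0.0596 for Cp in the former and 0.0592 for C3ar1 in the latter. C3ar1 was also not called between the fibroblasts when these groups were fitted alone (0.069). With array weights, 3103 genes were higher and 3362 lower between the embryonic groups (2054 and 2212 in the main analysis), 2519 were higher between the fibroblasts (1662), and 11 other complement genes were higher between the embryonic groups (7). Leaving out arrays moved the genes lower between the embryonic groups from 1452, without embryonic fibroblast replicate 2, to 2830. Other complement genes called lower, 2 in each comparison, were 1 in each with dim genes left out. Between the fibroblasts they were 5 with quantile normalization and 5 with array weights, and for adult fibroblasts against cardiomyocytes 4 with quantile normalization. Without single arrays they were 0 to 2 between the embryonic groups and 1 to 3 between the fibroblasts. The causes of these moves were not tested. Precision is limited by 3 arrays a group, and RMA values carry no background measure, so small steps of dim genes are the least certain.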
